A study of Mus musculus with 8 samples.

Results

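Brawnin and the nuclear-encoded subunits of respiratory complex III were followed in the cortex of Nuak1 knockout (KO) and wild type (WT) mouse embryos. The 10 genes were taken by name from a table of 21165 gene rows: Brawnin, listed there as 1190007I07Rik, and the subunits Uqcrc1, Uqcrc2, Uqcrfs1, Uqcrb, Uqcrq, Uqcrh, Uqcr10, Uqcr11 and Cyc1. Of these, 9 matched by symbol and Uqcr11 by its older symbol Uqcr, and all 10 were among the 12699 genes that passed the filter on low counts. Brawnin was chosen by its measured counts, which differed between KO and WT libraries, so that difference is given as a description with no test. The 9 subunits were listed for their place in the complex, although earlier results of these data were known when the list was made.

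RNA came from the microdissected cortex of 4 KO and 4 WT embryos at embryonic day 18.5, from a mouse line lacking Nuak1 in all cells and kept on a C57Bl/6JRj background. The labels name no other allele and no agent for either group. The KO embryos were 2 females and 2 males and the WT embryos 3 females and 1 male. The labels name 3 litters, whereas the design text speaks of 4. The columns of the count table carry only the genotype and a number from R1 to R4, so that neither the sex nor the litter of an embryo could be tied to a library. As the knockout is constitutive and the tissue was taken whole, all cell types of the cortex lack the kinase and all contribute to each value.

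Complex III, the cytochrome bc1 complex, is a dimer in the inner mitochondrial membrane. It takes electrons from reduced coenzyme Q, hands them to cytochrome c and moves protons across the membrane as it does so. Cytochrome b, cytochrome c1 and the Rieske iron-sulfur protein carry the redox centres, and the remaining subunits hold the complex together and link it to other respiratory complexes. Brawnin is a microprotein of the inner membrane that is required for complex III to assemble.

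Brawnin lies on the minus strand of chromosome 10 in the NCBIM37 (mm9) assembly, the build of the deposited counts, at chr10:82082596-82085973. Its annotated transcript has 3 exons and 748 bases, of which 273 precede the start codon. The coding sequence is 204 bases long with its stop codon and encodes 67 residues, which places it among the small proteins of the set (Uqcr11 has 56 residues, Uqcr10 64, Uqcrq 82, Uqcrh 89 and Uqcrb 111, against 274 for Uqcrfs1, 325 for Cyc1, 453 for Uqcrc2 and 480 for Uqcrc1). It is shown because the largest difference among the members lies in this transcript. Start and stop codons are in capitals.
Brawnin coding sequence: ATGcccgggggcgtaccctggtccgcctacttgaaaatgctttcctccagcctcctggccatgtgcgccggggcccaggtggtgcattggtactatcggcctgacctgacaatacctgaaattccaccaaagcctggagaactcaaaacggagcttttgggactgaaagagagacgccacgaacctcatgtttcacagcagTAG

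The 9 subunit genes lie apart from each other and from Brawnin. In NCBIM37, Uqcrc1 is at chr9:108838661-108851685 and Uqcrc2 at chr7:127778690-127802992, both on the plus strand, as is Cyc1 at chr15:76173953-76176364. On the minus strand are Uqcrfs1 at chr13:30632177-30637231, Uqcrb at chr13:67001553-67006314, Uqcrq at chr11:53241424-53244333, Uqcr10 at chr11:4601976-4604345, Uqcrh at chr4:115739570-115747676 and Uqcr11 at chr10:79865742-79869575. All are protein-coding genes.

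The promoters of Brawnin and of Uqcrc1 are shown because both hold the motif of NRF1, a transcription factor known for driving nuclear genes of the respiratory chain, although the transcripts differed in how they stood between the genotypes. The sequences run from 250 bases before to 50 bases after the transcription start and come from RefSeq (GRCm38.p6). Capitals mark matches on either strand to the NRF1 motif, searched as GCGC, an A, any base and GCGC again. Counted from the start site, the match begins at base -2 of Brawnin and at bases 6 and 31 of Uqcrc1. A stretch that matched on both strands was counted once.
Brawnin promoter, chr10:82623179-82623478, minus strand: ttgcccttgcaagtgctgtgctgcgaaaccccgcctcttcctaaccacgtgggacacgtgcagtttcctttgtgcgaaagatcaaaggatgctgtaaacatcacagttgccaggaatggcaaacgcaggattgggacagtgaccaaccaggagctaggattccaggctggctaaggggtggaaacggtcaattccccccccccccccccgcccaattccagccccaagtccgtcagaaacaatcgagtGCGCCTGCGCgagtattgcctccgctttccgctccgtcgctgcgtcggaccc
Uqcrc1 promoter, chr9:108936398-108936697, plus strand: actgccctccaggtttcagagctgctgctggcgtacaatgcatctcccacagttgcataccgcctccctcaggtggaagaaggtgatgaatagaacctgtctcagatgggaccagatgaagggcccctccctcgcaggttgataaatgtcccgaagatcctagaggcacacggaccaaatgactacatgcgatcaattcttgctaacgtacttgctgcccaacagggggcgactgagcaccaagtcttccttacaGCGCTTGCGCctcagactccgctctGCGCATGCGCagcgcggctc
An NRF1 match was found in 4.6% of 32851 RefSeq promoters of the same length. CCGGAAG, the motif of GABPA, was found in 8.86% of them, and among the members it stood in the promoters of Uqcrh, 10 bases before the start, and of Uqcr11, 66 bases before it. AAGATGG, the core of the YY1 motif, was found in 6.34% of promoters and in none of the 6 members with a RefSeq promoter. Uqcrfs1 and Uqcr10 had no match to any of the 3 motifs, and Uqcrc2, Uqcrb, Uqcrq and Cyc1 were not searched. A match describes the letters in this window and no binding.

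Nuak1 itself was measured first as a check of the labels. The level of Nuak1 was 0.86 ± 0.263 counts per 1000000 counts of the library (CPM) in KO (SD, n = 4) and 72.9 ± 15.7 in WT (SD, n = 4), a log2 fold change of -6.49 (SE 0.22, edgeR adjusted p = 1.22e-07). Total counts ran from 9643711 to 27014858 per library. One library stood apart in its cell make-up. Of 7 meningeal fibroblast markers listed, 5 were tested. Their summed level was 575 CPM in KO R1 and 15.7 to 29.7 CPM in the other 7 libraries. The summed endothelial and microglial markers were also highest in KO R1. The 6 markers of cortical excitatory neurons that were tested had a summed level of 1883 to 2513 CPM over the 8 libraries. Where leaving out KO R1 moved a value of complex III or its assembly by over 1.5 times, the value without it is given.

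Brawnin was lower in every KO library than in any WT library. The raw counts were 46, 23, 61 and 53 in KO R1 to R4 and 126, 156, 80 and 77 in WT R1 to R4. Scaled to library size, this was 3.57, 2.12, 2.29 and 2.16 CPM in KO and 7.84, 8.28, 6.40 and 7.87 CPM in WT. The groups did not overlap, as was the case with KO below WT for 1.85% of all genes tested, although Brawnin was chosen by this very contrast. In KO, 3 of the 4 KO libraries lay close together, and KO R1, the library rich in meningeal markers, was the highest of the KO group.

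Mean Brawnin was 2.53 ± 0.693 CPM (SD, n = 4) in KO against 7.60 ± 0.823 CPM (SD, n = 4) in WT, so that KO libraries held 33.4% of the WT level, a log2 fold change of -1.60 (SE 0.19). Without KO R1 the log2 fold change was -1.78, and over all 8 fits that each left out 1 library it stayed between -1.78 and -1.53. In bulk tissue, fewer cells that express a gene and less of its RNA in each cell cannot be told apart. With between 23 and 156 counts per library, Brawnin was the most thinly counted of the 10 genes, and counts per gene do not separate its transcript variants.

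Set against the complex it serves, the difference was of the same order. There were 2.67, 1.74, 1.75 and 1.75 Brawnin counts per 1000 counts of the 9 subunits in KO R1 to R4, and 6.57, 6.97, 5.75 and 5.98 in WT R1 to R4. The mean was 1.98 ± 0.462 (SD, n = 4) in KO against 6.32 ± 0.557 (SD, n = 4) in WT. The groups did not overlap on this scale either, while the summed subunits took up 0.127% ± 0.00663 (SD, n = 4) of all KO counts and 0.121% ± 0.00931 (SD, n = 4) of WT counts.

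**Figure D1:**
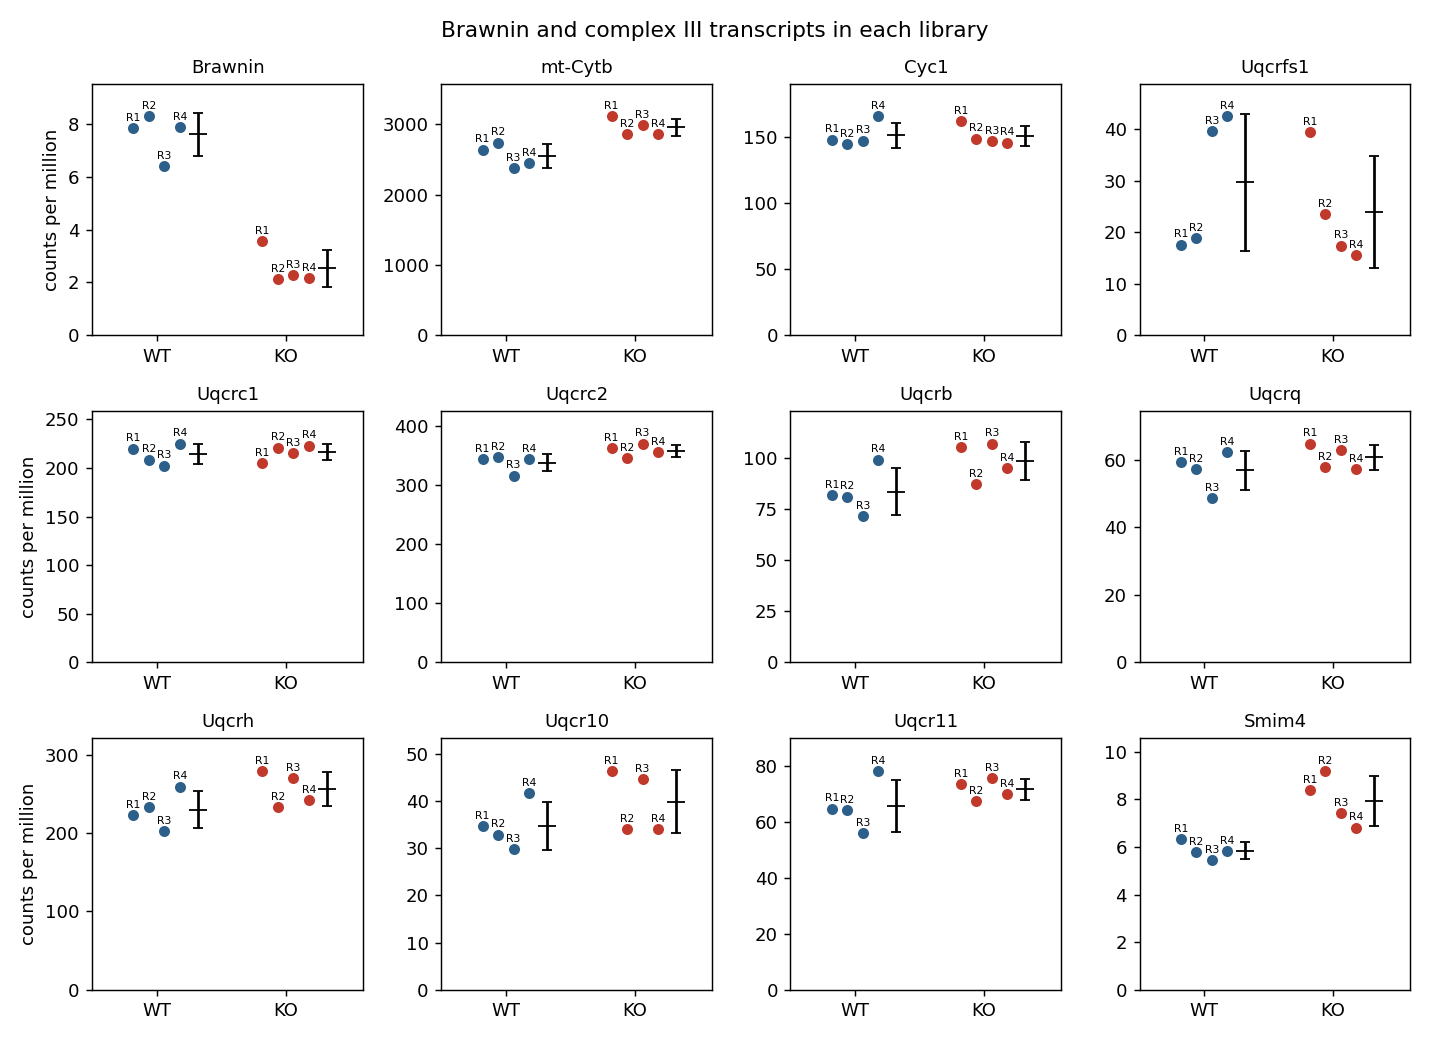
Levels of Brawnin, mt-Cytb, the 9 nuclear complex III subunits and Smim4 in each library, in CPM (y axis, starting at 0), for WT (blue) and KO (red); points are libraries R1 to R4 and bars show the mean with its SD over 4 libraries. Brawnin lies between 2.12 and 3.57 in KO and between 6.40 and 8.28 in WT, whereas the 2 genotypes overlap for each of the 9 nuclear subunits.

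Among the redox subunits, Cyc1, which carries the heme of cytochrome c1, overlapped almost fully between the genotypes. It had 162, 148, 147 and 146 CPM in KO R1 to R4 and 148, 144, 147 and 165 CPM in WT R1 to R4. Its log2 fold change was -0.00475 (SE 0.06, edgeR adjusted p = 0.991), and its sign turned under other settings (0.00227 with DESeq2). Without KO R1 it was -0.03. The highest value of each group, KO R1 and WT R4, set the upper end of the range.

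Uqcrfs1, the Rieske iron-sulfur protein, varied more over the libraries than any other subunit, with both genotypes at each end of the range. It had 39.5, 23.5, 17.4 and 15.6 CPM in KO R1 to R4, and 17.6, 18.9, 39.7 and 42.4 CPM in WT R1 to R4. KO R1, WT R3 and WT R4 lay at 39.5 to 42.4 CPM and the other 5 at 15.6 to 23.5 CPM.
The coefficient of variation over the 8 libraries was 43.3%, against 16.4% for Uqcr10, the next most variable subunit. The log2 fold change of -0.31 (SE 0.35, edgeR adjusted p = 0.882) was -0.65 without KO R1 and -0.08 without WT R4, the ends of the range over the fits that each left out 1 library. Its raw counts ran from 255 to 509 per library.

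mt-Cytb, which encodes cytochrome b, is the one complex III subunit encoded in the mitochondrial genome. It had 3109, 2858, 2991 and 2856 CPM in KO R1 to R4 and 2638, 2736, 2376 and 2443 CPM in WT R1 to R4. The lowest KO library lay above the highest WT library, which was the case, with KO above WT, for 2.64% of all genes tested. The log2 fold change was 0.21 (SE 0.06) and did not pass correction over all genes (edgeR unadjusted p = 0.00469, adjusted p = 0.451). With DESeq2 it was 0.22 (DESeq2 adjusted p = 0.061). After removal of a trend with transcript length it was 0.16 (edgeR unadjusted p = 0.0158, adjusted p = 0.571).
The mitochondrially encoded genes together took up 1.86% ± 0.101 (SD, n = 4) of KO counts and 1.57% ± 0.119 (SD, n = 4) of WT counts. For each count of the 9 nuclear subunits there were 2.32 ± 0.0262 mt-Cytb counts in KO and 2.13 ± 0.194 in WT, with overlapping groups. In WT R4 this ratio was 1.86, the lowest of the 8 libraries.

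The core subunits, Uqcrc1 and Uqcrc2, face the matrix and are the longest proteins of the set. Uqcrc1 had 205, 221, 215 and 223 CPM in KO R1 to R4 and 220, 209, 203 and 225 CPM in WT R1 to R4, with a log2 fold change of 0.01 (SE 0.05, edgeR adjusted p = 0.969), or 0.05 without KO R1. For Uqcrc2 the levels were 362, 346, 370 and 355 CPM in KO and 344, 347, 316 and 344 CPM in WT, with a log2 fold change of 0.09 (SE 0.05, edgeR adjusted p = 0.75). Both genes overlapped between genotypes, and the spread of Uqcrc2 in WT was set by WT R3. The last exon of Uqcrc2 overlaps Pdzd9 on the opposite strand, and whether strand was used in counting was not given in the sources used here.

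The 5 small subunits all had log2 fold changes above 0, and all 5 overlapped between genotypes. Uqcrb, which contacts the quinone-binding region of cytochrome b, had 105, 86.9, 107 and 95.0 CPM in KO R1 to R4 and 81.7, 80.9, 71.6 and 99.0 CPM in WT R1 to R4. Its log2 fold change of 0.25 (SE 0.10, edgeR unadjusted p = 0.0283, adjusted p = 0.625) was the highest of the 9 subunits, and no other subunit had an unadjusted p under 0.05. In 3 of the 4 WT libraries Uqcrb lay below every KO library, and WT R4 fell inside the KO range.

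Uqcrh, the acidic hinge protein at the docking site of cytochrome c1 for cytochrome c, had 279.5, 233, 270.2 and 242 CPM in KO R1 to R4 and 223, 233, 203 and 259 CPM in WT R1 to R4. Its log2 fold change was 0.16 (SE 0.08, edgeR adjusted p = 0.708). Uqcr10, a single-pass subunit near the Rieske protein, had 46.5, 34.1, 44.7 and 34.1 CPM in KO and 34.7, 32.9, 29.8 and 41.7 CPM in WT. KO R1 and KO R3 were high for both genes, and KO R2 and KO R4 lay within the WT range.

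Uqcrq, a small subunit bound to cytochrome b, had 64.8, 57.9, 62.9 and 57.1 CPM in KO R1 to R4 and 59.4, 57.2, 48.6 and 62.2 CPM in WT R1 to R4. For Uqcr11, a peripheral single-pass subunit, the levels were 73.7, 67.5, 75.8 and 70.0 CPM in KO and 64.8, 64.3, 56.0 and 78.3 CPM in WT. The log2 fold changes of Uqcr10, Uqcr11 and Uqcrq were 0.20, 0.13 and 0.09, with SEs of 0.13, 0.09 and 0.08. Uqcr10 stood at 0.13 without KO R1 and ran up to 0.30 without single libraries. Without WT R3 the values were 0.06 for Uqcr11 and 0.03 for Uqcrq, and without WT R4 they were 0.22 and 0.14. In each of these 3 genes WT R3 was the lowest of the 8 libraries.

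Some of the small subunits share sequence with other places in the genome. Searching the longest transcript against NCBIM37, copies that covered at least 80% of it at 90% identity or more outside the gene numbered 5 for Uqcrb (best 98.3%), 2 for Uqcr11 (98.4%), 1 for Uqcrh (95.3%) and 1 for Uqcr10 (92.0%). The other 6 genes, Brawnin included, had none. Uqcrb also overlaps exons of Gm10767 on the opposite strand, and Uqcrh holds the pseudogene Gm12854 in an intron. How reads that match several places were counted was not given in the sources used here, so the levels of these 4 subunits are less certain than those of the others.

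Counted together, 7 of the 9 nuclear subunits had a log2 fold change above 0 and 2 below it, against 45.6% of all genes tested above 0. The median over the 9 was 0.09, with a range from -0.31 to 0.25, beside -0.01 over all 12699 genes. No subunit passed an adjusted p of 0.05 with edgeR, by which 0.0709% of genes were called, nor with DESeq2, by which 0.512% were. At an unadjusted p under 0.05, 1 of the 9 was called, higher in KO, beside 7.69% of all genes (4.51% higher and 3.18% lower in KO). None of the 9 separated the genotypes without overlap, beside 4.49% of all genes.

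**Figure D2:**
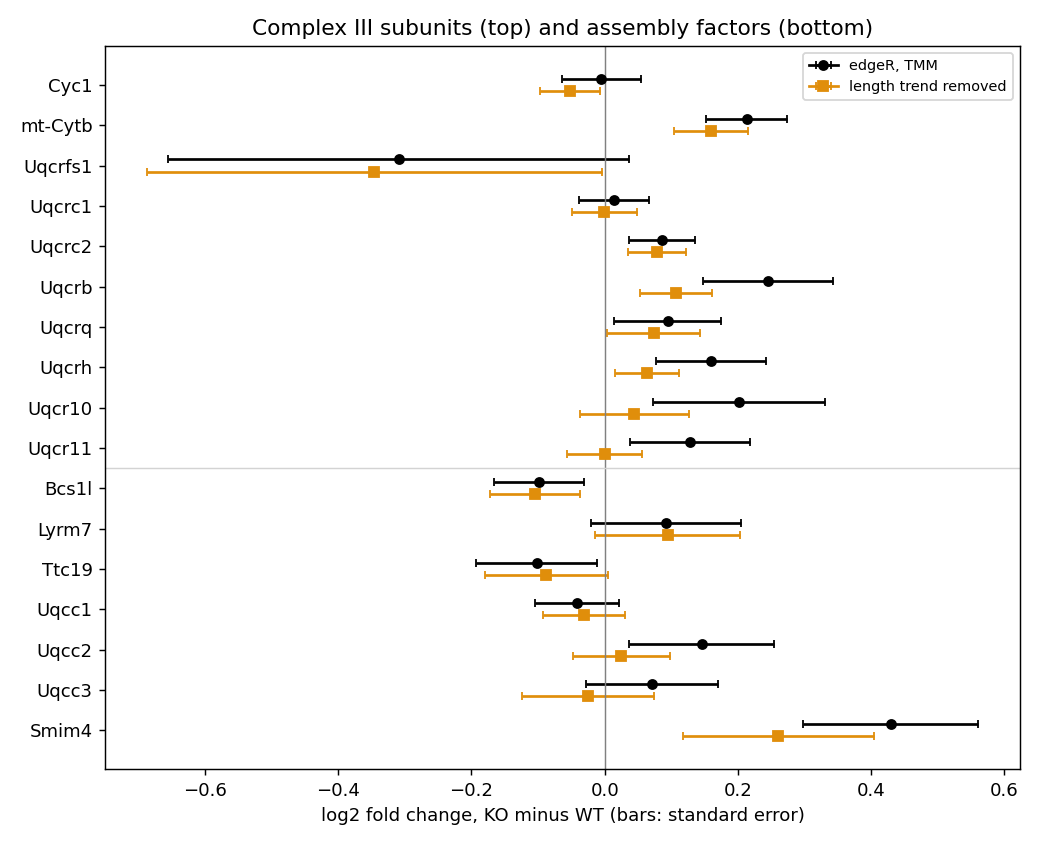
Log2 fold change, KO minus WT (x axis), of the complex III subunits (above the grey line) and assembly factors (below it); points are edgeR estimates and bars their standard errors, before (black circles) and after (orange squares) removal of a trend with transcript length. Values for the small subunits move towards 0 when the trend is removed (Uqcrb from 0.25 to 0.11), and Uqcrfs1 has the widest error (SE 0.35).

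Short transcripts as a whole lay on the same side of 0 as the small subunits, 4 of which (all but Uqcrq) have transcripts under 1 kb. Of 542 genes with transcripts under 1 kb, 414 had a log2 fold change above 0 with a median of 0.11, whereas the median was 0.02 over 2114 genes of 1 to 2 kb and -0.02 over 9522 longer ones. Once a smooth trend with transcript length had been taken out of each library, the median of the 5 small subunits went from 0.16 to 0.06, and that of the short genes to 0.00124. For Uqcrb the log2 fold change went from 0.25 to 0.11 (SE 0.05, edgeR unadjusted p = 0.0732), for Uqcr10 from 0.20 to 0.04, and for Uqcr11 from 0.13 to 0.000174. The median of the 9 subunits became 0.04, with 6 of them above 0. Brawnin, whose transcript is also under 1 kb, went the other way, from -1.60 to -1.71 (SE 0.17).

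The libraries showed this order in detail. Centred on each gene's mean over the 8 libraries, the median log2 level of the 5 small subunits was 0.21, -0.05, 0.16 and 0.00137 in KO R1 to R4 and -0.09, -0.09, -0.29 and 0.14 in WT R1 to R4. The genes with transcripts under 1 kb stood at 0.16, -0.03, 0.08 and 0.01 in KO and -0.07, -0.06, -0.17 and 0.06 in WT. Both sets were highest in KO R1 and lowest in WT R3, and WT R4 lay among the KO libraries. WT R3 was the lowest of the 8 libraries for 7 of the 9 subunits, and WT R4 the highest for 4 and KO R1 for 3.

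**Figure D3:**
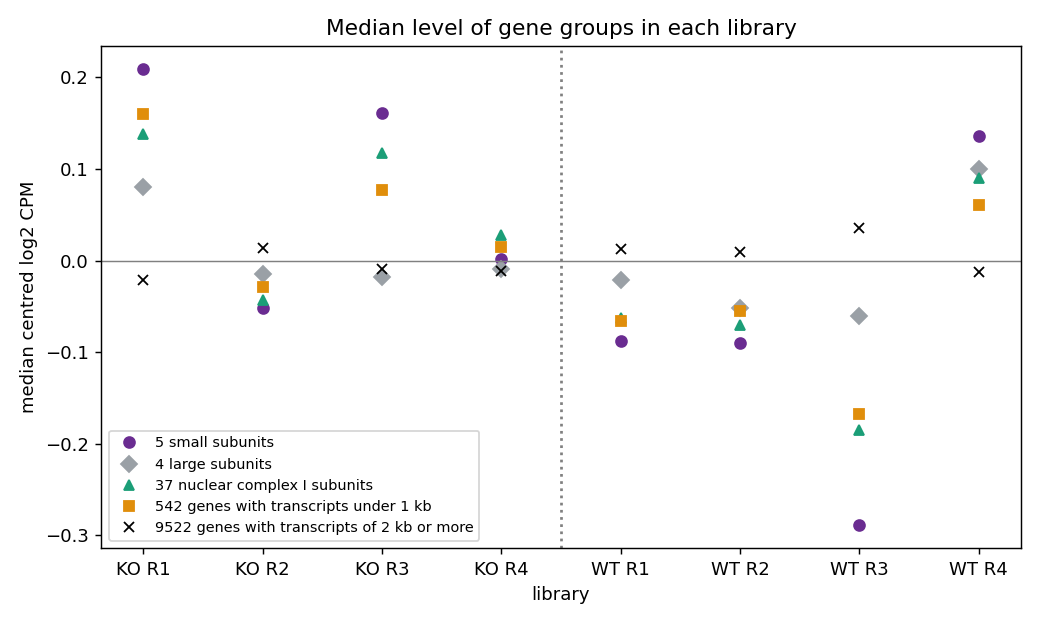
Median level of 5 gene groups in each library (y axis, log2 CPM centred on each gene's mean over the 8 libraries; x axis, libraries, KO left and WT right of the dotted line), one symbol per group. The 5 small subunits, the 37 genes taken by symbol as nuclear complex I subunits and the 542 short genes are low together in WT R3 (-0.29, -0.18 and -0.17). They are high together in KO R1 (0.21, 0.14 and 0.16), while genes of 2 kb or more stay near 0.

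The neighbouring respiratory complexes were examined for the same feature. Nuclear complex I genes were taken by symbol alone (Ndufa, Ndufb, Ndufc, Ndufs and Ndufv), a set that includes Ndufa4 and Ndufa4l2. The set numbered 37, with 32 above 0 and a median of 0.13. In it, 9 passed an unadjusted p of 0.05 (edgeR), all higher in KO, where 4.51% of all genes were called. The median transcript of the set was 967 bases, and 107 of the 542 genes under 1 kb were called higher in KO. Complex IV (13 Cox genes) had a median of 0.09 with 9 above 0 and 4 called, and ATP synthase (14 Atp5 genes) a median of 0.09 with 11 above 0 and 2 called. None of these genes passed an adjusted p of 0.05 with edgeR or with DESeq2. With the length trend removed the medians were 0.07, -0.04 and 0.05, beside 0.04 for complex III. The medians of the 3 groups lay on both sides of the complex III median, and no test between the groups was made.

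Uqcrfs1 did not follow the other subunits, and the genes most like it over the 8 libraries were looked up after its values had been seen. By mean absolute difference of centred log2 CPM, the nearest were Nrarp (0.136), Neurod2 (0.143), H2afj (0.149), Scand1 (0.152) and Tmem93 (0.156). Each had 1 to 3 exons in the annotation, and Uqcrfs1 itself has 2. Among the 50 nearest genes, 48 had a position, their median was 2.5 exons and 68.8% had no more than 3, whereas the median over all genes tested was 10 exons and 9.71% had no more than 3. The part of gene structure in the Uqcrfs1 pattern was not tested.

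**Figure D4:**
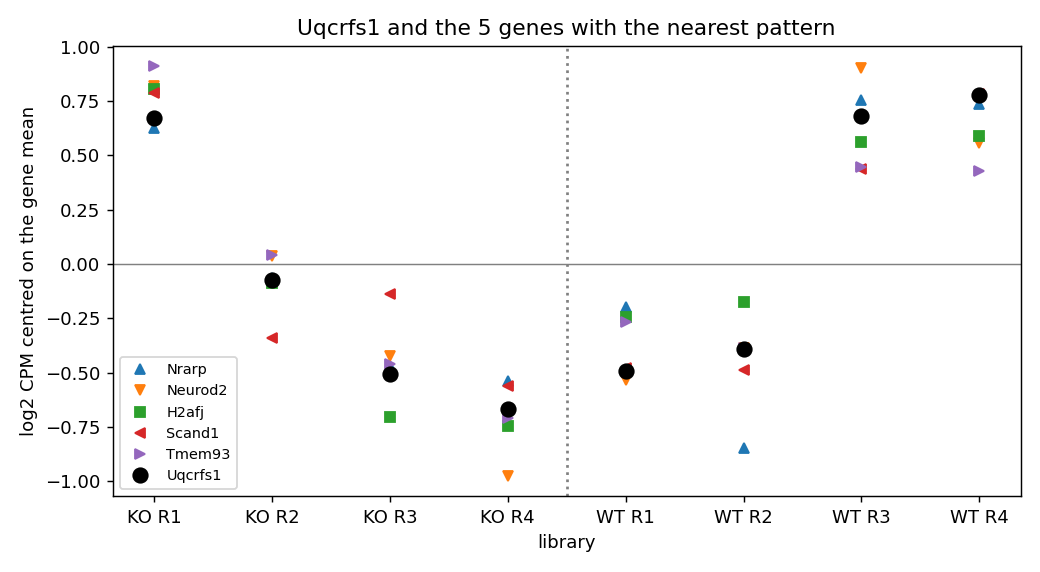
Level of Uqcrfs1 (black circles) and of the 5 genes nearest to it in pattern (coloured symbols) in each library (y axis, log2 CPM centred on each gene's mean; x axis, KO left and WT right of the dotted line). All 6 genes are above 0 in KO R1, WT R3 and WT R4, and below 0 in KO R3, KO R4, WT R1 and WT R2.

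By the same measure, the genes nearest to the median of the 9 subunits were Ndufs4 (0.0231), Uqcrh (0.028), Uqcrq (0.0291), Uqcr11 (0.0299) and Mrpl30 (0.0302). Of these 5, Uqcrh, Uqcrq and Uqcr11 belong to the median itself. Nearest to Brawnin were Emilin2 (0.293), Crym (0.376), Tdg (0.39), Dqx1 (0.405) and Pde11a (0.415). The distance grows with the size of a difference and with counting noise, so it was not compared between the patterns. As Brawnin differed between the genotypes, this search favoured genes lower in KO. Emilin2, Dqx1 and Pde11a had at most 29 counts in any library. Tdg, a DNA glycosylase gene at chr10:82092573-82113544 on the plus strand, is a direct neighbour of Brawnin, with 6.6 kb between them. It had 59.4 to 69.0 CPM in KO and 109 to 124.5 CPM in WT. Its log2 fold change was -0.83 (edgeR adjusted p = 0.000383 over all genes tested). Nuak1 lies 1.75 Mb from Brawnin on the same chromosome.

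Levels of the members were compared per kilobase of exon. In WT, Uqcrh was highest with 186 ± 19.1 CPM per kb (SD, n = 4), followed by Uqcrc2 with 135 ± 5.81, Uqcrc1 with 129 ± 6.22, Cyc1 with 126.5 ± 8.01, Uqcr11 with 103 ± 14.4 and Uqcrb with 95.1 ± 13.04. Lower down came Uqcr10 with 59.6 ± 8.63, Uqcrq with 31.0 ± 3.21, Uqcrfs1 with 21.8 ± 9.71 and Brawnin with 10.2 ± 1.10 CPM per kb. Over the 8 libraries, the ranges of neighbours in this order overlapped except between Uqcrh and Uqcrc2, between Uqcrb and Uqcr10, between Uqcr10 and Uqcrq, and between Uqcrfs1 and Brawnin. The middle of the order, from Uqcrc2 to Uqcrb, is therefore resolved only in part. The lowest values of Uqcrc2 (126.2 CPM per kb) and Uqcrc1 (122.4) lay above the highest of Uqcr11 (122.2) and Uqcrb (121.9). Cyc1, from 120.9 to 138.4 CPM per kb, overlapped each of them.

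The order was nearly the same in KO, with Uqcrb (112 ± 10.6) and Uqcr11 (112 ± 5.79) exchanging places. From the highest to the lowest subunit the mean level per kb in WT differed 8.53-fold, although the subunits stand in equal numbers in the complex. The lowest subunit, Uqcrfs1, exceeded Brawnin per kb of exon 2.14-fold in WT and 5.19-fold in KO, where Brawnin was at 3.39 ± 0.927 CPM per kb (SD, n = 4). mt-Cytb, at 2227 ± 146 CPM per kb in WT and 2582 ± 106 in KO, was far above all nuclear subunits. The order depends on which length is used: of the 10 genes, 6 kept their place in WT with the longest transcript and 1, Uqcrh, with the coding length. The span between the highest and lowest subunit in WT was then 13.2-fold and 23.8-fold. With the coding length the order of Uqcrfs1 and Brawnin turned in WT, where Uqcrfs1 stood at 0.954 of the Brawnin level, while in KO it stayed above Brawnin, by 2.31-fold.

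**Figure D5:**
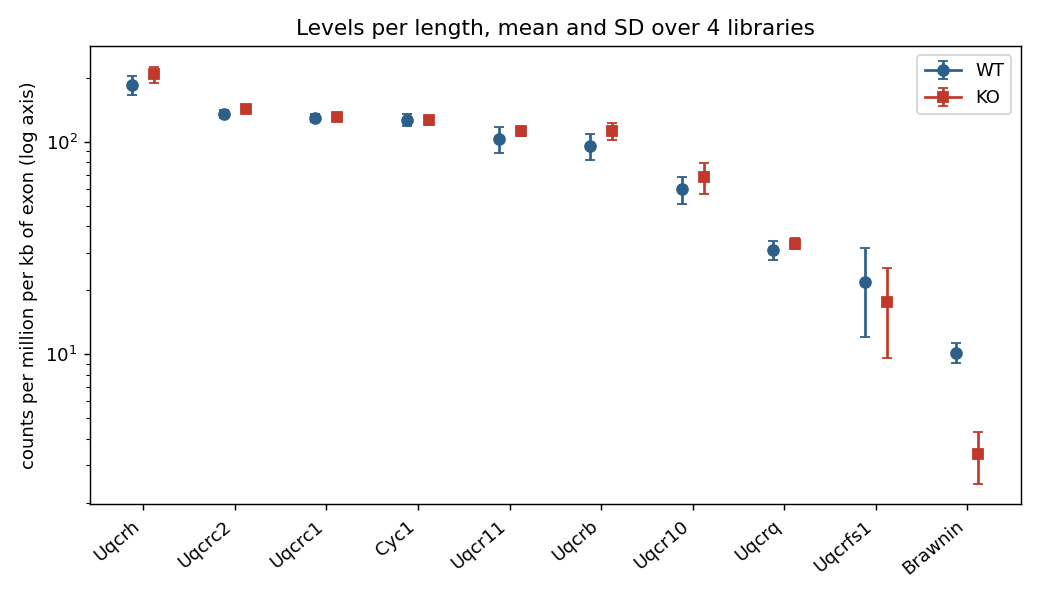
Mean level per kilobase of exon (y axis, CPM per kb, log scale) of Brawnin and the 9 nuclear complex III subunits in WT (blue circles) and KO (red squares), with bars for the SD over 4 libraries, ordered by the WT mean. Brawnin is lowest in both genotypes (10.2 in WT and 3.39 in KO), and the subunits run from Uqcrh (186 in WT) down to Uqcrfs1 (21.8 in WT).

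Other assembly factors of complex III were read from a list of 7. Bcs1l, a translocase that inserts the Rieske protein, had a log2 fold change of -0.10 (SE 0.07), Lyrm7, its chaperone, 0.09 (SE 0.11), and Ttc19, which clears Rieske fragments, -0.10 (SE 0.09). The factors that handle newly made cytochrome b were Uqcc1 (-0.04, SE 0.06), Uqcc2 (0.15, SE 0.11) and Uqcc3 (0.07, SE 0.10). These 6 genes overlapped between genotypes, none had an edgeR unadjusted p under 0.05, and the signs of Uqcc1 and Uqcc3 turned under other settings. Without KO R1 the values were -0.05 for Bcs1l, 0.05 for Lyrm7, -0.06 for Ttc19 and -0.03 for Uqcc1. Without WT R4, Uqcc2 stood at 0.27, Lyrm7 at 0.15 and Ttc19 at -0.05.

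Smim4, listed as 2010107H07Rik, is a small inner membrane protein that acts at an early step of cytochrome b assembly. It had 8.38, 9.20, 7.42 and 6.82 CPM in KO R1 to R4 and 6.35, 5.78, 5.44 and 5.83 CPM in WT R1 to R4. All KO libraries lay above all WT libraries, as for 2.64% of all genes tested, and the difference was opposite in sign to that of Brawnin. The log2 fold change was 0.43 (SE 0.13, edgeR unadjusted p = 0.00764, adjusted p = 0.508), and with the length trend removed it was 0.26 (SE 0.14, edgeR unadjusted p = 0.0978). Over the 7 factors the median was 0.07, with 4 above 0, and 1 called at an unadjusted p under 0.05, where 4.51% of all genes were called higher in KO.

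Genes acting beside complex III overlapped between the genotypes. Cox7a2l, which joins complexes III and IV into supercomplexes, had a log2 fold change of 0.08 (SE 0.06), and the related assembly factors Higd1a and Higd2a 0.09 (SE 0.14) and 0.00452 (SE 0.08). Cycs, cytochrome c itself, stood at 0.18 (SE 0.09). None of these 4 passed an edgeR unadjusted p of 0.05. Without KO R1, Higd1a stood at -0.000477 and Cox7a2l at 0.05.

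Upstream, complex II and the coenzyme Q pathway supply the substrate of complex III. Of 6 complex II genes listed, 5 were tested and 1 was called at an unadjusted p under 0.05: Sdhd, a membrane anchor, with a log2 fold change of 0.16 (SE 0.07, edgeR unadjusted p = 0.0462, adjusted p = 0.646). This call was lost with the length trend removed (log2 fold change 0.13, edgeR unadjusted p = 0.0755). The median of the 5 was -0.00195. Of 15 coenzyme Q genes, 10 were above 0 with a median of 0.04, and 1 was called, Adck4, a kinase-like protein of coenzyme Q synthesis, with a log2 fold change of 0.17 (SE 0.07, edgeR unadjusted p = 0.0371, adjusted p = 0.631). Over all genes tested, 7.69% were called at this threshold, with 4.51% called higher in KO.

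The factors whose motifs were searched in the promoters had log2 fold changes below 0 in each case: -0.15 for Nrf1, -0.07 for Gabpa, -0.14 for Gabpb1 and -0.06 for Yy1. None had an edgeR unadjusted p under 0.05. Gabpb1, the partner subunit of Gabpa, was lower in all KO than in all WT libraries (37.1 ± 1.41 against 40.9 ± 1.84 CPM, SD, n = 4 each), as were 1.85% of all genes tested.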

How the data were processed

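Poly-A RNA of 4 KO and 4 WT cortices was sequenced as paired-end reads. Per the labels and the study's methods, adapters and low-quality bases were removed by the authors (Cutadapt 1.13, Prinseq), reads were aligned to mm9 (TopHat2 2.0.13, with SAMtools 0.1.19), and raw HTSeq counts per gene were deposited; the annotation release and strand setting were not given in the sources used here. Columns were matched to genotypes by name, and no column was left unused. Nothing was deposited normalized.

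KO was compared with WT by edgeR 4.0.16 in R 4.3.3 (TMM, filterByExpr, quasi-likelihood test, two-sided, Benjamini-Hochberg over all 12699 genes), without covariates. DESeq2 1.42.0, other scalings and filters, a per-library lowess trend with transcript length (span 0.3) and the omission of single libraries were alternatives. The fits were tested on simulated data. Each group held 4 embryos, with 9643711 to 27014858 counts per library. Log2 CPM values used a prior count of 0.5. Exons and lengths came from the GENCODE vM1 annotation of NCBIM37. Named were all members, mt-Cytb, Nuak1, every assembly and supercomplex gene, genes of the other lists past an unadjusted p of 0.05, the 5 genes nearest in pattern, and genes overlapping or next to a member. Members and lists were chosen with earlier results of these data known.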

Additional observations from a re-analysis of the deposited data

Results flagged for a closer look

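In each group of 4 libraries, the gap of the highest or lowest library to its nearest neighbour was set against the whole range of the group. Of 44 groups examined (KO and WT for the members, mt-Cytb and the listed assembly and supercomplex genes), 3 had a library apart by Dixon's criterion, where about 2.2 would be flagged by chance. Brawnin was highest in KO R1, at 3.57 CPM, with the other KO libraries at 2.12 to 2.29 CPM. Uqcrc2 was lowest in WT R3, at 316 CPM, with the other WT libraries at 344 to 347 CPM. Cyc1 was highest in WT R4, at 165 CPM, with the other WT libraries at 144 to 148 CPM. KO R1 was also the library with the most meningeal markers (575 CPM), and WT R3 was the lowest library for 7 of the 9 subunits; the part of either in these values was not tested.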

How the results depend on the processing

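No paired analysis was possible because no column could be tied to an embryo; a litter block and a sex covariate were therefore not run. The log2 fold change of Brawnin lay between -1.78 and -1.53 without single libraries and was -1.71 with the length trend removed. No complex III subunit passed an adjusted p of 0.05 under any alternative run. The median over the 9 subunits went from 0.06 to 0.14 without single libraries, with 6 to 8 of them above 0.

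Over all genes, 65 passed an adjusted p of 0.05 with DESeq2 and 9 with edgeR, and 2 to 11 without single libraries (2 without KO R3, 3 without KO R4 or WT R3, 4 without WT R1 or WT R2); the cause was not tested. Cyc1 turned positive with DESeq2 (0.00227), DESeq2 size factors (0.00196), at least 10 counts in every library (0.0032) and no filter (0.00521), and ran from -0.032 to 0.046 without single libraries. With the length trend removed, Uqcrc1 turned to -0.000451, Uqcc3 to -0.025 and Higd2a to -0.12. Without single libraries, Uqcrc1 ran from -0.00666 to 0.046, Uqcc1 from -0.062 to 0.0037, Higd1a from -0.013 to 0.18 and Higd2a from -0.042 to 0.059.

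Genes past an unadjusted p of 0.05 fell to 0 with the length trend removed for complex II and for the assembly factors. Without single libraries they numbered 0 to 1 for coenzyme Q, complex II, the supercomplex genes and the motif factors, and 1 to 2 for the assembly factors. In the WT order by level per kb, 6 members kept their place with the longest transcript and 1 with the coding length; in the order over all 8 libraries the coding length kept 3. Of the values recomputed, 19 for single genes changed sign.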
